A study of Mus musculus with 2 samples.

Results

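The cells described here are T cells with Ly49 receptor transcripts from mouse melanoma, 682 of 17334 kept cell barcodes. They were gated on unique molecular identifiers (UMIs), each of which counts 1 captured RNA molecule. Kept barcodes had 500 or more UMIs, of which no more than 10% were mitochondrial. A kept barcode entered the gate with at least 2 UMIs of Cd3e, Cd3d and Cd3g together, which code for the CD3 chains of the T cell receptor complex, and at least 1 UMI of Klra1 or Klra6, which code for Ly49A and Ly49F. It had no UMI of Ncr1 (an NK receptor), Cd8b1 (the beta chain of CD8), Foxp3 (the regulatory T cell factor) or Cd79a (B cell receptor signalling), and at most 2 of Lyz2 (a myeloid lysozyme). The levels of these genes in the gated cells are set by the gate and are no finding. The working label for the cells was Ly49-bearing innate-like T cells, with Klra6, Klra1, Trdc, Cd160 and Ikzf2 as markers.

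Ly49 receptors are lectin-like molecules that bind MHC class I, and many of them inhibit the cell that carries them. They are best known from NK cells, but subsets of memory-like CD8 T cells, NKT cells and gamma delta T cells carry them too. Helios, the product of Ikzf2, and the receptor CD160 are both known from innate-like T cells, among them those of the gut epithelium. A T cell carries either an alpha beta or a gamma delta receptor. The delta genes lie inside the alpha locus and are deleted from a chromosome that rearranges its alpha genes, although transcripts of receptor genes that were never rearranged also occur.

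The study grew B16.SIY tumours, a mouse melanoma line with a model antigen, under the skin of B6 mice and sorted live CD45+ leukocytes from the digested tumours on day 14. The tumour cells carried either a control shRNA or an shRNA against Decr2, a peroxisomal enzyme of polyunsaturated fatty acid breakdown, delivered by lentivirus with 3 days of puromycin at 1.5 µg/mL. The shRNA was thus in the injected melanoma cells and not in the sorted leukocytes. Each group gave 1 droplet library and the number of mice behind it was not stated, so differences between libraries have no replicate check and no p-value.

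The control library gave 421 of the gated cells and the Decr2 knockdown library 261. In sum they held 1287118 and 1234795 UMIs. Their median depth was 2691 and 4366 UMIs, with ranges of 631 to 10633 and 1182 to 21087, and all kept cells had medians of 3002 and 4573.5 UMIs, so the knockdown library was the deeper. A deeper cell shows a UMI of a given gene more often. Shares are therefore also given after each cell was thinned at random to 1000 UMIs, and levels are in CPM, a gene's UMIs scaled to a common total for each class and library (counts per 1e6 UMIs). Brackets hold 95% intervals that cover counting error only. In all kept cells Decr2 was found at 5.32 and 4.38 CPM, with a ratio of 0.823 (0.684 to 0.991), and the gated cells held 12 and 5 of its UMIs. The 2 libraries shared 34 barcodes, among them 1 gated control cell and 2 gated knockdown cells.

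Values below are given for the control library first and the knockdown library second. Gated cells were compared with 4 other classes. Ly49-negative T cells (862 and 612) met every other condition of the gate but had no UMI of Klra1 or Klra6. CD8 T cells (1764 and 1317) had a UMI of Cd8b1 and none of Klra1 or Klra6. NK cells (1846 and 1181) had Ncr1 and no CD3 UMI. B cells (255 and 159), with at least 2 UMIs of Cd79a and no CD3 UMI, stand for the level that free RNA in the droplets can give in a cell type that should lack T and NK genes. Their median depth was 1642 and 2593 UMIs, below that of the gated cells. Unlike the other classes, B cells had no condition on Ncr1 or Lyz2. Ncr1 stood there at 43.0 and 20.8 CPM and Lyz2 at 135 and 519 CPM. The B cell level can thus include RNA of other cells in the same droplet as well as free RNA, and their parts were not tested.

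Most gated cells carried alpha beta receptor transcripts, and the label's marker Trdc, the delta constant gene (chromosome 14, 54142851 to 54148868, GRCm38), was found in few. A Trdc UMI was present in 12.4% (9.36 to 15.9) of gated control cells and 14.2% (10.2 to 19.0) of gated knockdown cells. Trac, the alpha constant gene (chromosome 14, 54220521 to 54224206), was present in 60.1% and 65.9%, and in 2.35% and 6.29% of B cells. Trac was thus the more common of the pair in both libraries. Trdc was in 17.6% and 22.7% of Ly49-negative T cells, and the gated cells were lower, by differences of -5.28 points (-9.17 to -1.05) and -8.54 points (-13.6 to -2.84). After thinning the differences were -3.75 points (-7.23 to 0.0870) and -6.98 points (-11.1 to -2.21), and the first interval includes 0. NK cells, which have no T cell receptor, still had a Trdc UMI in 14.1% and 20.6%. Gated cells differed from NK cells by -1.73 points (-4.99 to 2.07) and -6.40 points (-10.8 to -1.16). Thinned, Trdc was in 9.40% and 8.05% of gated cells and 5.57% and 5.01% of NK cells, which turned the order. The thinned differences were 3.82 points (1.12 to 7.16) and 3.04 points (-0.0302 to 7.13). The control interval before thinning and the knockdown interval after it include 0. By level, Trdc stood at 129 and 132 CPM in gated cells, at 202 and 210.2 CPM in Ly49-negative T cells and at 57.2 and 57.5 CPM in NK cells. The cells are called Ly49+ T cells below, after their gate, since Trdc marked few of them.

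Detection of a beta constant gene did not tell the receptor type of a cell. Trbc2 was found in 86.0% and 93.5% of Ly49+ T cells, and either Trbc1 or Trbc2 in 96.0% and 98.1%. One of them was also found in 94.3% and 100% of the Ly49+ T cells that had Trdc and lacked Trac. By level, Trbc2 in those cells was 0.723 (0.591 to 0.879) and 0.593 (0.471 to 0.737) times that of cells with Trac and no Trdc. NK cells had Trbc1 in 69.0% and 73.7% and Trbc2 in 33.1% and 45.6%, so Trbc2 was less common there than in Ly49+ T cells, by 52.9 points (48.6 to 56.5) and 47.8 points (43.2 to 51.6).

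**Figure D1:**
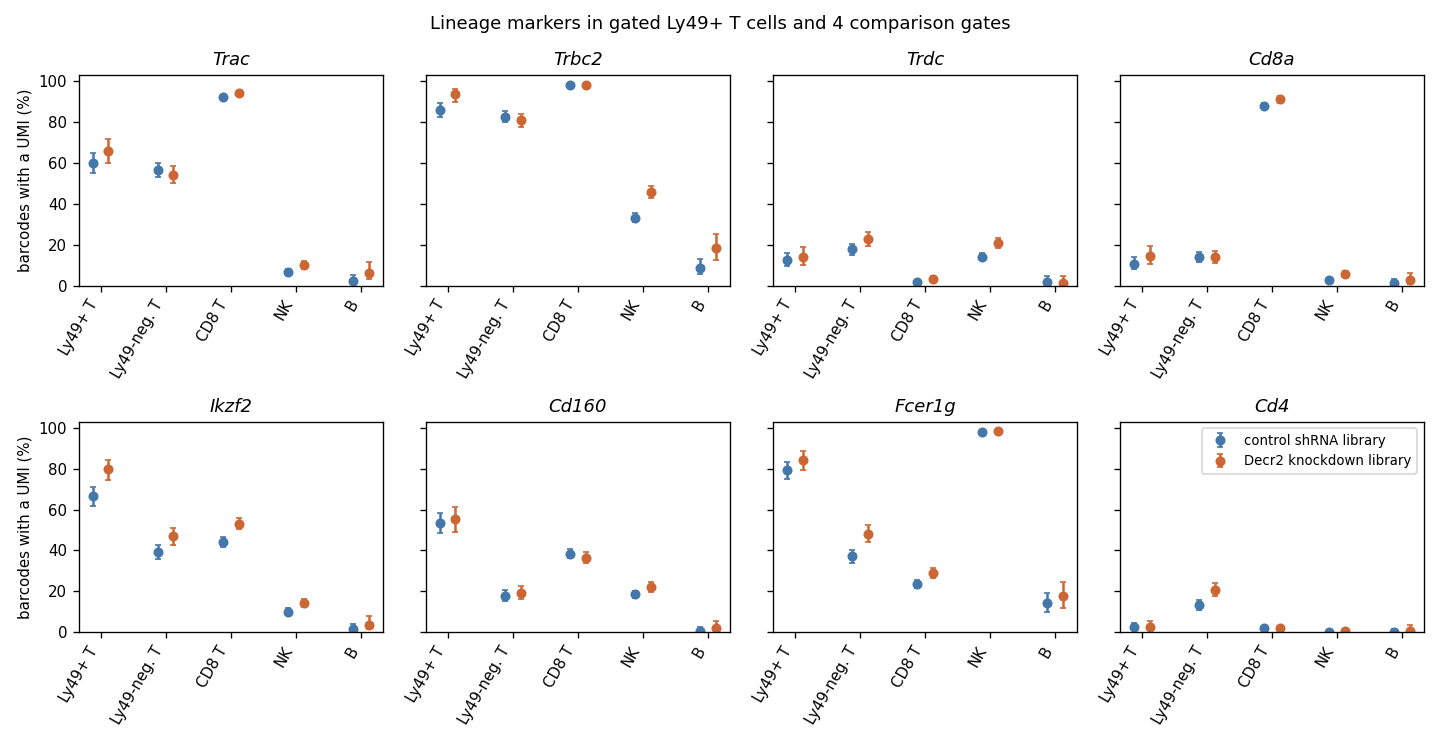
Share of barcodes with at least 1 UMI (%) of 8 lineage genes in Ly49+ T cells and 4 comparison gates, for the control shRNA and Decr2 knockdown libraries; bars are exact 95% counting intervals. Ikzf2 and Cd160 were most often detected in Ly49+ T cells (66.5% and 79.7% for Ikzf2), and Trdc did not exceed 22.7% in any of the 5 gates.

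Sorted by receptor transcript, 236 (56.1%) control cells and 158 (60.5%) knockdown cells had Trac without Trdc. Trdc without Trac was found in 35 (8.31%) and 23 (8.81%). Both genes were seen in 17 and 14 cells, and neither in 133 (31.6%) and 66 (25.3%). Cells without either gene had a lower median depth (2330 and 3804.5 UMIs) than those with Trac alone (2909.5 and 4588.5 UMIs), and the part of depth in this class was not tested. A constant gene of the gamma chain was found in 57.1% and 73.9% of the Trdc cells and in 25% and 29.1% of the Trac cells. A stricter gamma delta definition, Trdc together with a gamma constant gene, held 27 (6.41%) and 26 (9.96%) of the Ly49+ T cells.

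CD4 and CD8 transcripts were scarce. Cd8a, the alpha chain of CD8, was found in 10.7% and 14.6% of Ly49+ T cells, against 87.8% and 91.0% of CD8 T cells. Its level of 48.9 and 54.3 CPM was 0.0941 (0.0723 to 0.121) and 0.117 (0.0904 to 0.148) times that of CD8 T cells. Since Cd8b1 was gated out, a low Cd8a is partly set by the gate. Ly49-negative T cells, gated alike on Cd8b1, had Cd8a in 13.8% and 13.7%. The differences were -3.12 points (-6.70 to 0.831) and 0.834 points (-3.95 to 6.24), and both intervals included 0. By level, Cd8a in Ly49+ T cells was 0.580 (0.431 to 0.770) and 0.980 (0.727 to 1.31) times that of Ly49-negative T cells. Cd4 was in 2.38% and 2.68%, against 13.3% and 20.9% of Ly49-negative T cells, with differences of -11.0 points (-13.6 to -8.10) and -18.2 points (-21.9 to -14.1). Neither Cd4 nor Cd8a was detected in 86.9% and 82.8% of Ly49+ T cells, a mostly double-negative transcript pattern at this depth. Cd8a was in 14.0% and 17.7% of Trac cells and 6.01% and 12.1% of cells with neither constant gene. It was in 0 of 35 and 0 of 23 Trdc cells, for which the exact intervals reach 10.0% and 14.8% (the limit of 3 counts is 8.57% and 13.0%). These limits are for cells with a UMI and not for cells that express Cd8a.

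Ikzf2 (chromosome 1, 69531214 to 69687245, minus strand) was the most common of the label's markers that the gate did not use. It was detected in 66.5% (61.8 to 71.0) and 79.7% (74.3 to 84.4) of Ly49+ T cells. The shares were 39.3% and 46.9% in Ly49-negative T cells, 44.2% and 53.2% in CD8 T cells, 10.2% and 14.3% in NK cells and 1.57% and 3.77% in B cells. After thinning to 1000 UMIs, Ly49+ T cells still led with 42.4% and 47.1%, against 25.1% and 27.6% of Ly49-negative T cells. The Ikzf2 level of 693 and 729 CPM was 2.01 (1.83 to 2.20) and 2.03 (1.86 to 2.22) times that of Ly49-negative T cells and 4.92 and 5.02 times that of CD8 T cells.

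Cd160 (chromosome 3, 96798763 to 96829351, minus strand) was detected in 53.4% and 55.2% of Ly49+ T cells. Ly49-negative T cells showed it in 18.0% and 19.4% and B cells in 0.784% and 1.89%, so it was well above the free RNA level. Its 308 and 289 CPM were 3.17 (2.71 to 3.73) and 4.84 (4.04 to 5.83) times the level of Ly49-negative T cells. At least 1 of Ikzf2 and Cd160 was detected in 81.9% and 87.4% of Ly49+ T cells, and both in 38.0% and 47.5%. The markers were named with results of these libraries known, so these shares describe the cells and do not test the label.

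The Ly49 family lies in a cluster on chromosome 6, with Klra6 at 130013033 to 130026954, Klra7 at 130218605 to 130233322 and Klra1 at 130363917 to 130386874, all on the minus strand of GRCm38. By gate, Klra1 alone was detected in 222 and 123 cells, Klra6 alone in 111 and 89, and both in 88 and 49. A further Ly49 gene was present in 70.1% and 71.3% of the cells. Klra7, which codes for the inhibitory Ly49G, led these with 57.5% and 59.4% of cells and 565 and 423 CPM. NK cells held Klra7 at 510 and 392 CPM and Ly49-negative T cells at 122 and 102 CPM, so Ly49+ T cells were near NK cells in this gene. Klra9 (Ly49I) followed at 83.1 and 83.4 CPM, and Klra3 (Ly49C) at 48.2 and 66.4 CPM.

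The activating receptors were far below NK cells. Against B cells they were lower in the control library and higher in the knockdown library. Klra4 (Ly49D) was at 45.1 and 31.6 CPM, against 46.7 and 18.7 CPM in B cells and 615 and 700.2 CPM in NK cells. Klra8 (Ly49H) was at 23.3 and 36.4 CPM, against 54.2 and 16.6 CPM in B cells and 469 and 511 CPM in NK cells. The sequences of the Ly49 genes are alike, and reads of one can be dropped or placed on another. In the last 300 bases of their annotated transcripts, near where a 3′ assay reads, 16.5% of the 31-base words of Klra1 and 5.18% of those of Klra6 also occurred in another Ly49 gene. The shares were 40.4% for Klra7, 52.2% for Klra8, 61.1% for Klra3 and 70.2% for Klra9, so the values of these last genes are the least certain.

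Cells with Klra1 alone and cells with Klra6 alone differed in what else they carried, in the same direction in both libraries. Ikzf2 was in 55.9% of Klra1 cells and 82.0% of Klra6 cells of the control library, and in 69.9% and 88.8% of the knockdown library. The difference was -26.1 points (-35.1 to -15.8) and -18.8 points (-28.8 to -7.78). After thinning it was -18.5 points (-29.3 to -7.13) and -21.3 points (-33.9 to -7.71), so its interval stayed below 0. Klrk1, which codes for the activating receptor NKG2D, ran the other way, with 60.8% of Klra1 cells against 36.9% of Klra6 cells in the control library and 70.7% against 44.9% in the knockdown library. Thinned, the Klrk1 difference was 10.6 points (-0.0558 to 20.3) and 16.4 points (3.95 to 27.6), and the first interval includes 0.

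Il7r, the IL-7 receptor alpha chain, was likewise more common in Klra1 cells, by 16.2 points (5.46 to 25.8) and 20.9 points (7.86 to 33.2), or 11.0 points (1.91 to 18.9) and 20.0 points (6.96 to 31.8) after thinning. Klrb1c, the gene of NK1.1, was in 30.2% against 16.2% and in 37.4% against 22.5%, but both of its thinned intervals included 0. Klra6 cells had the higher median depth (3115 against 2552.5 UMIs, and 4486 against 3871). Trac was more common in Klra6 cells, with 70.3% against 51.4% and 74.2% against 58.5%, and its thinned interval included 0 in the knockdown library. For Trdc the difference was 0.450 points (-8.28 to 7.96) and 1.65 points (-8.71 to 11.2), so none was detectable at this number of cells.

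**Figure D2:**
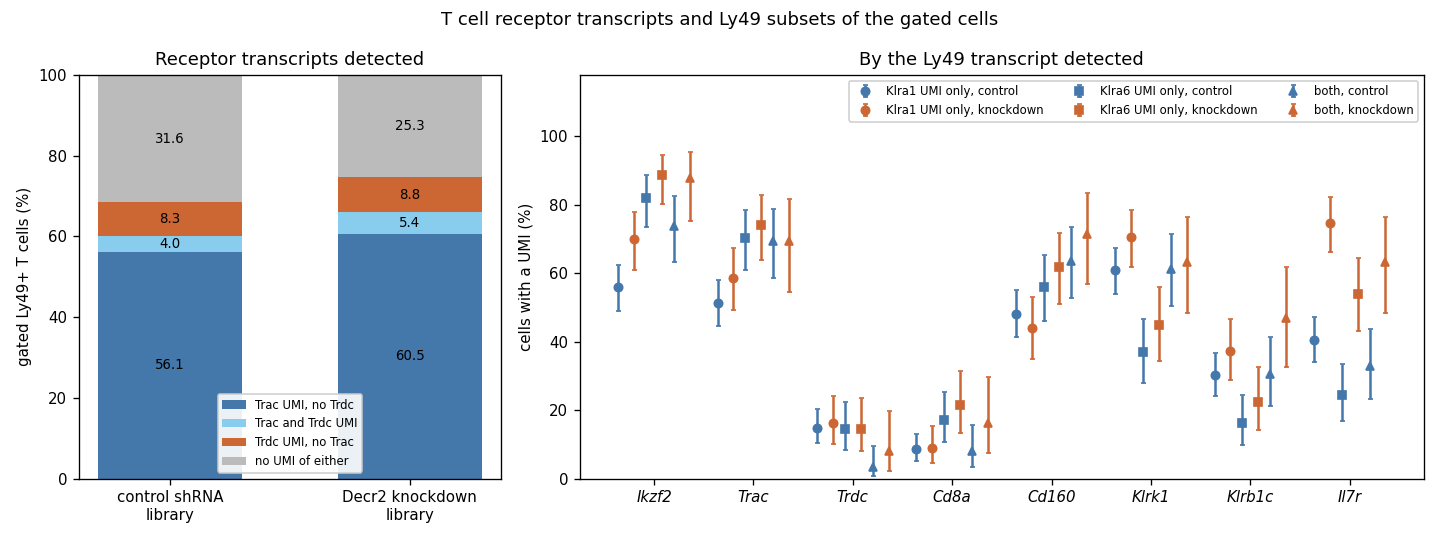
Left, share of Ly49+ T cells (%) by the receptor constant gene detected in each library. Right, share of cells with a UMI (%) of 8 genes in cells with Klra1 alone, Klra6 alone or both, with exact 95% counting intervals; Ikzf2 was higher in Klra6 cells (82.0% and 88.8%) than in Klra1 cells (55.9% and 69.9%).

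The gate's threshold of 1 Ly49 UMI was examined by the number of Klra1 and Klra6 UMIs per cell. With 0, 1, 2, 3 or 4, and 5 or more UMIs there were 862, 147, 113, 98 and 63 control cells and 612, 98, 64, 58 and 41 knockdown cells. Cd160 was in 18.0% of control cells with 0 UMIs, 42.2% with 1, 50.4% with 2, 61.2% with 3 or 4, and 73.0% with 5 or more. In the knockdown library the shares were 19.4%, 51.0%, 54.7%, 50% and 73.2%. Median depth was also higher at the top than at the bottom of the series, at 3239 against 2410 and 4911 against 3820 UMIs. Fcer1g, the FcR gamma adaptor, was already higher at the first UMI, with 37.1% at 0 and 77.6% at 1 in the control library and 48.2% and 76.5% in the knockdown library. Ikzf2 did likewise, with 39.3% and 71.4%, and 46.9% and 78.6%. Cd4 was lower from the same point, at 13.3% and 2.72%, and 20.9% and 2.04%.

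Trdc was found mainly near the threshold. It was in 19.0% and 23.5% of cells with 1 Ly49 UMI, in 6.12% and 1.72% of cells with 3 or 4, and in 7.94% and 17.1% of the few cells with 5 or more. The cells just outside the gate on its other sides were few. With everything else met, 67 control and 30 knockdown barcodes had 1 UMI of Ncr1, 28 and 21 had 1 UMI of Cd8b1, and 39 and 29 had 1 CD3 UMI. Inside the gate, 28 and 10 cells had exactly 2 CD3 UMIs.

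**Figure D3:**
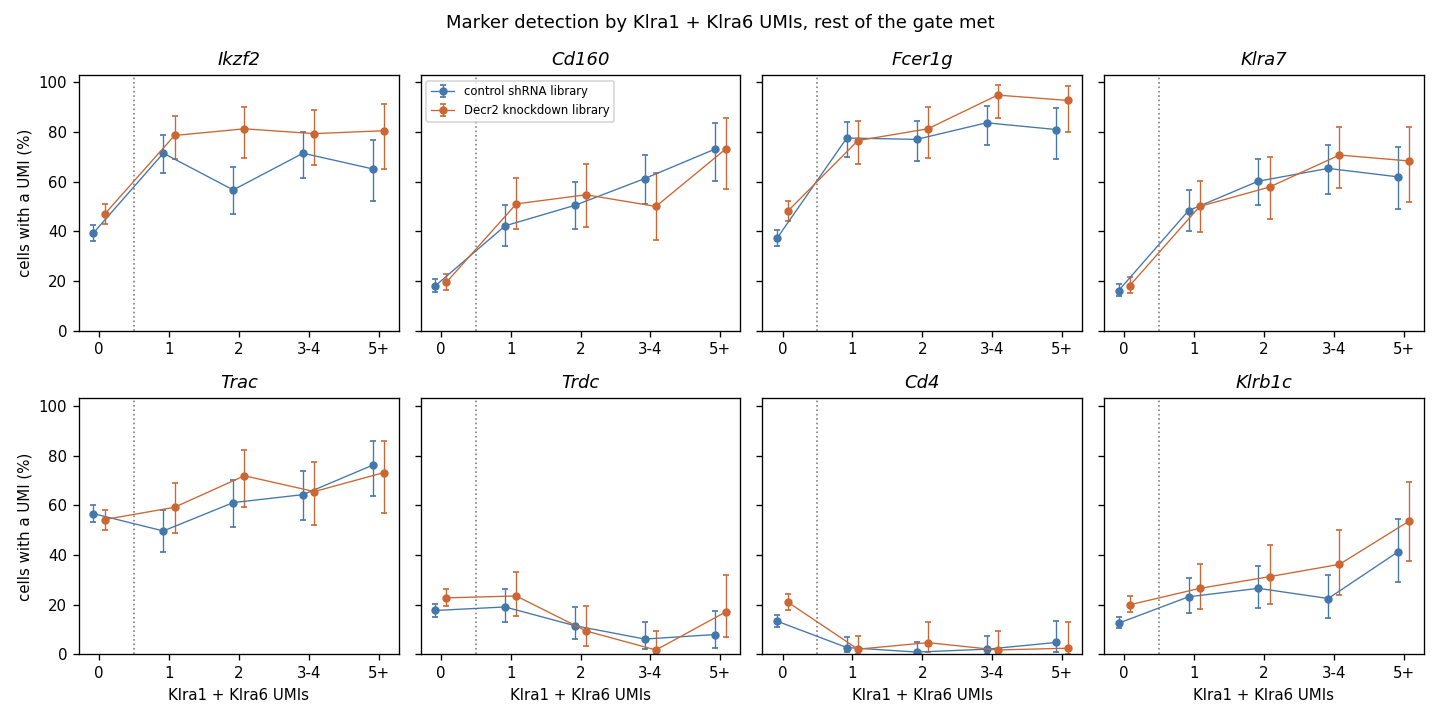
Share of cells with a UMI (%) of 8 genes by the number of Klra1 and Klra6 UMIs, in cells that met the rest of the gate, with exact 95% counting intervals; the dotted line is the gate. Ikzf2, Fcer1g and Cd4 changed between 0 and 1 UMI, while Cd160 was at 18.0% with 0, 42.2% with 1 and 73.0% with 5 or more in the control library.

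Levels were next compared gene by gene within each library, over genes with at least 30 UMIs in the 2 summed classes and 50 CPM in 1 of them, and a gene was counted when it was past 2-fold in the same direction in both. Against Ly49-negative T cells, 14 of 2858 genes were higher (0.49%) and 79 lower (2.76%). Against NK cells, 53 of 2897 genes were higher (1.83%) and 94 lower (3.24%). Against CD8 T cells, 223 of 2991 genes were higher (7.46%) and 249 lower (8.32%). The gate itself chose the cells on Ly49, CD3, Ncr1 and Cd8b1 UMIs, so these counts describe the classes and are no test.

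Several innate receptor genes were past 2-fold higher in Ly49+ T cells than in Ly49-negative T cells. Klra7 was 4.62 and 4.14 times as high, Cd7, a T and NK membrane protein, 2.65 and 3.50 times, and Klrk1 2.60 and 2.15 times. Klrd1, which codes for CD94, was at 648 and 549 CPM, or 2.39 and 1.99 times. Of the 2855 genes counted for lists, 909 were higher in both libraries and 1228 lower in both. Of 11 measured genes on the list of other NK receptors, 10 were higher in both libraries, of which Klrk1, Cd160 and Cd7 were past 2-fold, and none was lower in both. Log2 ratios are given after 10 CPM was added to both levels, which understates the change of low genes. The median log2 ratio of this list was 1.20 and 0.89, against -0.05 and -0.03 for all genes tested. Klrb1c stood at 146 and 168 CPM, against 57.8 and 85.6 CPM in Ly49-negative T cells and 512 and 556 CPM in NK cells.

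Fcer1g was in 79.3% and 84.3% of Ly49+ T cells at 944 and 884 CPM. That was above Ly49-negative T cells (385 and 466 CPM) and B cells (282 and 193 CPM) and below NK cells (2091 and 2132 CPM). Tyrobp, the DAP12 adaptor of activating Ly49 receptors, was at 403 and 364 CPM, near the 359 and 307 CPM of B cells and 0.166 and 0.158 times the level of NK cells. Of 3 measured adaptor genes, all were higher than in Ly49-negative T cells in both libraries and none was past 2-fold in both. Of the 2855 genes counted for lists, 909 were higher in both. Of Fcer1g and Tyrobp, Fcer1g stood well above the level of B cells and Tyrobp did not.

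Among the transcription factors, Ikzf2 and Id3 were past 2-fold higher than in Ly49-negative T cells, and Rora and Maf past 2-fold lower, of 16 measured. Id3, an inhibitor of E proteins, was at 96.3 and 98.8 CPM, 2.31 and 2.86 times Ly49-negative T cells and 19.5 and 18.0 times NK cells, with 54.2 and 58.1 CPM in B cells. Bcl11b, which maintains T cell identity, was 10.7 (7.50 to 15.6) and 13.0 (8.68 to 20.1) times the NK level. Tcf7, the TCF1 gene of naive and memory T cells, was at 209.8 and 262 CPM, against 26.2 and 48.8 CPM in CD8 T cells, and Lef1 at 116 and 171 CPM against 36.9 and 52.5 CPM. Factors of cytotoxic lymphocytes were lower than in NK cells. Eomes was at 48.9 and 47.0 CPM against 249 and 288 CPM, and Tbx21 (T-bet) at 61.4 and 46.2 CPM against 111 and 105 CPM. Zbtb16, the PLZF gene of NKT cells, was in 4.04% and 6.13% of Ly49+ T cells, 4.18% and 4.74% of Ly49-negative T cells and 0.392% and 0.629% of B cells.

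Effector genes were mixed. Xcl1, a chemokine that attracts XCR1+ dendritic cells, was in 61.5% and 62.8% of Ly49+ T cells at 772 and 701 CPM. This was 2.51 and 3.39 times the level of Ly49-negative T cells, 10.9 and 9.38 times that of CD8 T cells, and near that of NK cells (728 and 699 CPM). Nkg7, a cytotoxic granule protein, was in 93.3% and 94.3% of cells at 1326 and 1125 CPM, against 301 and 133 CPM in B cells. Granule killers were far below the level of NK cells. Prf1, perforin, was at 69.9 and 64.0 CPM, 0.0749 (0.0601 to 0.0923) and 0.0687 (0.0543 to 0.0858) times the NK level, beside 95.4 and 37.4 CPM in B cells. Gzma was at 1128 and 409 CPM, against 832 and 372 CPM in B cells, and Ccl4, a chemokine, at 218 and 232 CPM against 417 and 243 CPM in B cells, with 50.5% of the knockdown Ccl4 UMIs in 1 cell. Summed over all Ly49+ T cells, Prf1 and Ccl4 were thus at or below 2 times the level of B cells. Gzma stood at 9419 and 9466 CPM in NK cells, 220 and 209 CPM in CD8 T cells and 559 and 668 CPM in Ly49-negative T cells. Among Ly49+ T cells Gzma was uneven: those with 1 Ly49 UMI held 582 and 78.8 CPM and those with 5 or more 2126 and 1055 CPM. The latter were 63 and 41 cells, and how far 1 cell set their level was not tested. In knockdown cells with both Klra1 and Klra6, 1 cell gave 84.9% of the Gzma UMIs. Cells with Klra6 alone held Gzma at 444 and 86.5 CPM and cells with Klra1 alone at 1349 and 685 CPM, with 45.4% of the latter's knockdown UMIs in 1 cell.

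Genes of IL-17 T cells were nearly missing from Ly49+ T cells. Il17f, Il22, Il1r1 and Blk had 0 UMIs in both libraries, and all 10 Il17a UMIs came from 1 control cell. Ly49-negative T cells had an Il17a UMI in 3.48% and 1.47%. Tmem176a and Tmem176b, the measured genes of the IL-17 list, were past 2-fold lower than in Ly49-negative T cells, Tmem176a at 0.151 and 0.171 times their level.

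Homing genes were higher than in CD8 T cells and checkpoint genes lower. S1pr1, Klf2, Klf3 and Satb1 were past 2-fold higher. Ly6c2, a Ly6C gene of memory-like T cells, was in 80.8% and 83.1% of Ly49+ T cells at 1429 and 1336 CPM, against 519.5 and 717 CPM in CD8 T cells and 143 and 219 CPM in NK cells. Il7r was 10.7 (8.55 to 13.6) and 11.1 (9.46 to 13.0) times the NK level. At 209.8 and 475 CPM it was near Ly49-negative T cells, which held 241 and 433 CPM. Against Ly49-negative T cells, none of 6 measured homing genes and none of 9 measured cytokine receptor genes was past 2-fold in both libraries. Pdcd1 (PD-1) was found at 10.1 and 30.0 CPM, 0.0309 and 0.0929 times CD8 T cells. Havcr2 (TIM-3) was at 3.88 and 2.43 CPM against 77.4 and 86.3 CPM. Pdcd1, Lag3, Havcr2, Ctla4 and Rgs16 were past 2-fold lower, 5 of 6 measured inhibitory genes, and Nt5e, which codes for CD73, past 2-fold higher. All 14 proliferation genes were past 2-fold lower as well, with Ube2c at 31.1 and 29.2 CPM against 294 and 269.8 CPM, and so were 7 of 10 measured glycolysis genes. CD8 T cells were deeper (medians 6323.5 and 10143 UMIs), and with equal weight per cell 141 genes were higher and 153 lower.

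Other leading genes against CD8 T cells were Rbpms, an RNA-binding protein (30.3 and 33.8 times), Hes1, a Notch target (27.9 and 18.8 times), and Car2, carbonic anhydrase (12.8 and 10.9 times). Against NK cells they included Nsg2, at 53.6 and 64.8 CPM against 1.64 and 1.96 CPM, Klk8 (17.9 and 7.13 times) and Jaml, an adhesion molecule (7.19 and 9.56 times). Jaml was also 2.27 and 2.27 times the Ly49-negative level, and Spry2, an inhibitor of growth factor signalling, 2.42 and 2.55 times. Atp1b1, a sodium pump subunit, was 22.8 and 10.8 times the level of CD8 T cells and 2.76 and 2.62 times that of Ly49-negative T cells.

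Several of the genes lower than in Ly49-negative T cells are known from melanoma or myeloid cells. Gpnmb was at 0.159 and 0.0674 times their level, Apoe at 0.105 and 0.117 and Sparc at 0.0687 and 0.111. The 9 melanoma markers summed to 291 and 260.0 CPM in Ly49+ T cells, against 1966 and 2652 CPM in Ly49-negative T cells and 1797 and 384 CPM in B cells, and their part in the difference was not tested. Glycolysis genes, of which 8 of 12 were past 2-fold lower, stand beside the same values. Genes of helper and regulatory T cells were also lower: Cd4, Ctla4 and Tnfrsf4 (OX40), all 3 measured, were past 2-fold, with Tnfrsf4 at 30.3 and 30.8 CPM against 163 and 168 CPM and Ctla4 at 37.3 and 51.8 CPM against 223 and 224 CPM.

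**Figure D4:**
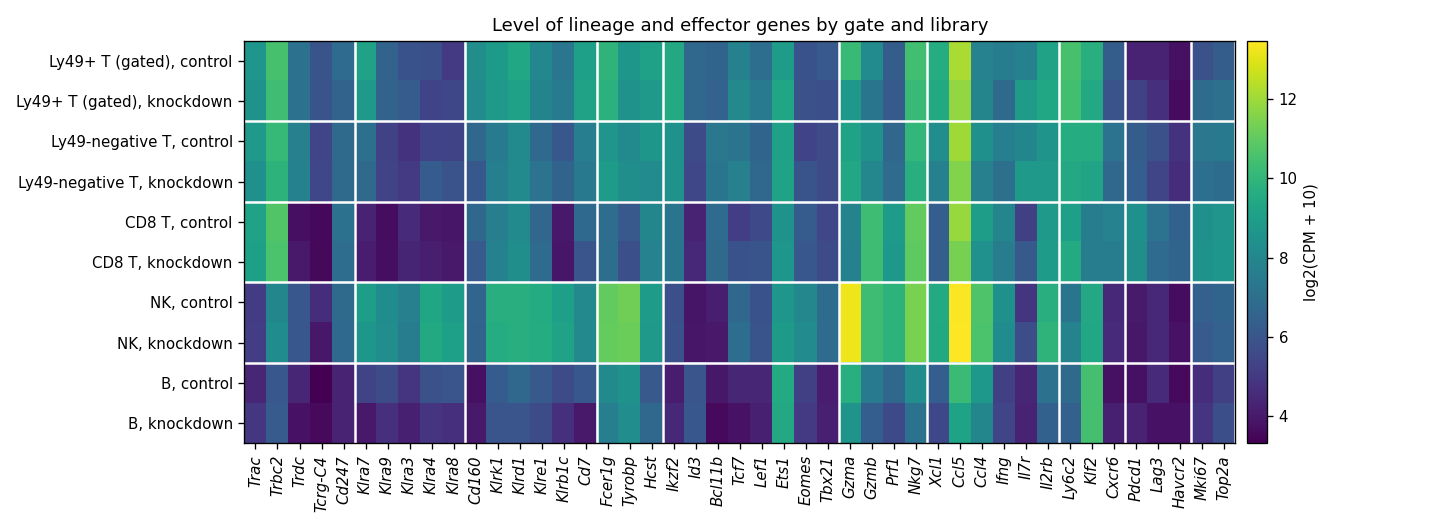
Level of genes as log2(CPM + 10) in the summed UMIs of each gate and library; columns are grouped by role from receptor genes to cell cycle genes. Ly49+ T cells shared Klra7 and Xcl1 with NK cells and Trac and Trbc2 with T cells, had the highest Ikzf2 (693 and 729 CPM) and Ly6c2 (1429 and 1336 CPM) of the 5 gates, and were low for Pdcd1 and Havcr2.

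Cells with Trdc and no Trac were compared with cells with Trac and no Trdc inside the gate. Of 2740 genes, 16 were past 2-fold higher in both libraries (0.584%) and 19 lower (0.693%), and only 35 and 23 Trdc cells stand behind these counts. Tcrg-C4, a gamma constant gene, was 5.53 (2.89 to 10.4) and 4.96 (2.62 to 9.21) times as high in Trdc cells. Klrc1, which codes for the inhibitory receptor NKG2A, was in 40% of Trdc cells against 13.6% of Trac cells in the control library and in 34.8% against 16.5% in the knockdown library, where thinning turned the direction. Ccr2, a chemokine receptor, was 2.20 (1.18 to 3.90) and 5.72 (2.91 to 11.1) times as high, and Tyrobp 1.87 (1.40 to 2.47) and 3.97 (3.08 to 5.10) times. By share of cells, Tyrobp differed by 17.6 points (0.00543 to 33.3) and 7.87 points (-12.9 to 27.9). The second interval includes 0, and so did its thinned form (-3.54 to 35.0). Ikzf2 was lower in Trdc cells, at 0.676 (0.499 to 0.899) and 0.313 (0.208 to 0.454) times the level of Trac cells. Id3 was at 0.258 (0.0522 to 0.779) and 0.183 (0.0218 to 0.682) times, from 3 and 2 UMIs in Trdc cells, and both of its thinned intervals for the share of cells included 0. Fcer1g was in 80% and 82.6% of Trdc cells and in 77.1% and 84.8% of Trac cells, with differences of 2.88 points (-13.7 to 14.4) and -2.20 points (-22.5 to 10.0).

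Ly49+ T cells made up a smaller share of the knockdown library. They were 4.26% (3.87 to 4.68) of kept control barcodes and 3.50% (3.09 to 3.94) of kept knockdown barcodes, which differ by -0.767 points (-1.34 to -0.184). Of all barcodes with at least 2 CD3 UMIs they were 10.8% (9.83 to 11.8) and 8.64% (7.66 to 9.70), which differ by -2.15 points (-3.54 to -0.740). The deeper library thus had the smaller share, and after thinning to 1000 UMIs the shares of T cells were 7.49% and 4.77%. Among cells that met the rest of the gate the shares were 32.8% and 29.9%, and the interval of the difference, -2.92 points (-6.86 to 1.09), included 0. After thinning these were 12.2% and 7.37%, and differed by -4.85 points (-6.99 to -2.65). With 1 library per group, a difference between tumours, mice or sorts cannot be told apart from one between the shRNAs. Without the barcodes that the libraries share, the shares of kept barcodes were 4.27% and 3.48%.

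The ratio of knockdown to control was 1.05 (0.958 to 1.16) for Ikzf2, 0.937 (0.810 to 1.08) for Cd160, 1.02 (0.820 to 1.28) for Trdc, 0.918 (0.806 to 1.05) for Trac and 1.11 (0.774 to 1.59) for Cd8a. All of these intervals included 1. The share of cells with Ikzf2 differed by 13.2 points between knockdown and control, but by -3.96 points with cells thinned to 2000 UMIs, so this difference turned with depth. For Cd160 it was 1.73 points, and thinned to 1000 UMIs it turned to -9.13 points (-15.4 to -2.46), an interval below 0. Klra1 was lower in the knockdown library at 385 CPM against 603 CPM, a ratio of 0.638 (0.568 to 0.716), and Klra6 at 209 CPM against 250.2 CPM, but these values are shaped by the gate. Klra7, outside the gate, had a ratio of 0.748 (0.668 to 0.839) in Ly49+ T cells and 0.769 (0.726 to 0.815) in NK cells.

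Across 2905 genes tested in Ly49+ T cells, 73 were at least 1.5-fold higher in the knockdown library (2.51%) and 33 at least 1.5-fold lower (1.14%). The same shares over Ly49-negative T cells were 2.12% and 1.16%, over CD8 T cells 0.466% each, and over NK cells 0.101% and 0.203%. Summed UMIs were 14475158 and 17267302 in CD8 T cells and 5472560 and 5099752 in NK cells, more than in Ly49+ T cells. Smaller sums pass the threshold more often by counting error, so the shares of the classes are not directly comparable. In counts simulated for Ly49+ T cells with counting error only, 1.33% of 2788 unchanged genes passed it in either direction. Il7r (chromosome 15, 9505788 to 9530176, minus strand) was among the highest, at 209.8 and 475 CPM (ratio 2.27, 1.96 to 2.63), and was detected in 34.7% and 65.5% of cells. After thinning to 1000 UMIs Il7r was in 18.8% and 34.9%. Its ratio was 1.80 in Ly49-negative T cells, 2.23 in CD8 T cells and 2.20 in NK cells, so Il7r was higher in all of these classes. Tsc22d3, the glucocorticoid-induced GILZ gene, stood at 106 and 211 CPM (ratio 2.0, 1.62 to 2.48), with ratios of 1.46, 1.58 and 1.70 in the same other classes and 1.43 in B cells. Of all 2905 genes tested, 1519 had a ratio above 1. Of 6 measured genes of the glucocorticoid and stress list, all were above 1 and 2 past 1.5-fold, with a median log2 ratio of 0.43 against 0.01 for all genes tested. The other past the threshold was Per1, a clock gene, at 33.4 and 61.5 CPM.

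Other genes higher in the knockdown library included Lef1 at 116 and 171 CPM (ratio 1.48, 1.19 to 1.83), Tcf7 at 209.8 and 262 CPM (ratio 1.25, 1.06 to 1.48) and Il18r1, an IL-18 receptor chain, at 95.6 and 144 CPM (ratio 1.51, 1.19 to 1.91). Of 9 measured cytokine receptor genes, Il7r and Il18r1 were past 1.5-fold higher. Abl1, a tyrosine kinase, stood at 26.4 and 55.9 CPM (ratio 2.12, 1.38 to 3.29) and Mlxip, a glucose-sensing factor, at 22.5 and 55.9 CPM (ratio 2.48, 1.59 to 3.97). When each cell was thinned to 1000 UMIs, the log2 ratio of Mlxip was 0.01 in place of 1.02. All 7 measured proliferation genes were above 1, beside 1519 of all 2905 genes tested, and Mki67, Top2a and Pclaf were past 1.5-fold. Mki67 was at 47.4 and 109 CPM, Top2a at 68.4 and 124 CPM, Pclaf at 51.3 and 96.4 CPM and Hist1h1b, a histone gene of S phase, at 88.6 and 173 CPM. In the knockdown library 25.2% of Mki67 UMIs and 22.9% of Hist1h1b UMIs came from 1 cell, and cells with a UMI of Mki67 were 7.60% and 9.58%. Thinning took the log2 ratio of Mki67 from 1.06 to 0.49 and that of Top2a from 0.77 to 0.42, both under 1.5-fold on that scale. Without the highest doublet scores Top2a was at 0.30 and Hist1h1b at 0.50, under it as well, and Mki67 at 0.60. The Mki67 ratio was 0.789 in Ly49-negative T cells, 1.06 in CD8 T cells and 0.851 in NK cells.

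Mast cell protease genes each had most of their knockdown UMIs in 1 cell. In the knockdown Ly49+ T cells, the top cell of each gene gave 99.1% of the Mcpt4 UMIs, 99.3% of Tpsb2, 96.9% of Cma1 and 94.5% of Cpa3. Whether this was the same cell for each gene was not tested. These protease genes were among the highest in that library relative to the control, with Mcpt4 at 2.33 and 177 CPM and Cma1 at 8.55 and 209 CPM. They do not describe the class.

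Genes lower in the knockdown library were led by granzymes. Gzma was found at 1128 and 409 CPM (ratio 0.363, 0.327 to 0.401). In B cells Gzma was at 832 and 372 CPM (ratio 0.447), while the ratio was 1.00 in NK cells and 1.20 in Ly49-negative T cells. The share of Ly49+ T cells with a Gzma UMI was 25.9% and 29.9%, and 32.3% of the knockdown UMIs came from 1 cell. Without the cells that had UMIs of 2 proliferation genes, the log2 ratio of Gzma was -3.09 in place of -1.44. That setting removed 53.7% of control and 76.2% of knockdown cells and left 195 and 62. A deeper cell meets its condition more often, and the part of depth was not tested. Gzmb stood at 288 and 143 CPM (ratio 0.497, 0.413 to 0.596), beside a ratio of 0.429 (0.280 to 0.644) in B cells. Both granzymes thus moved in Ly49+ T cells as they did in B cells, and what part free RNA had was not tested.

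Ifng was lower too, at 182 and 104 CPM (ratio 0.570, 0.456 to 0.710), with ratios of 0.644 in Ly49-negative T cells, 0.767 in CD8 T cells and 0.893 in NK cells. B cells held Ifng at 28.05 and 33.2 CPM (ratio 1.18 (0.548 to 2.57)), an interval that includes the ratio in Ly49+ T cells, and what part free RNA had was not tested. Ccl5, a chemokine of memory T cells, was at 4653 and 3584 CPM, beside a ratio of 0.482 in B cells. Hopx, a factor of effector T cells, stood at 207 and 128 CPM (ratio 0.617, 0.503 to 0.754). Cd48, a ligand of CD244, was at 216 and 134 CPM, and Gimap7, a lymphocyte GTPase, at 273 and 181 CPM. The calcium-binding S100a4 was at 385 and 271 CPM and S100a6 at 727 and 506 CPM. Hspa1b, an inducible heat shock gene, was found at 384 and 221 CPM (ratio 0.576, 0.495 to 0.669), and its ratios in the other 4 classes were 0.436 to 0.737.

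By list, 10 cytotoxic genes were measured, of which Gzma and Gzmb were past 1.5-fold lower, none was past it upward and the median log2 ratio was -0.10. Of 12 other NK receptors, Slamf7 (71.5 and 43.7 CPM) and Cd244a (61.4 and 39.7 CPM), both receptors of the SLAM family, were past 1.5-fold lower. Of 17 transcription factors, Hopx and Zeb2 (68.4 and 42.9 CPM) were past it downward and none upward. Of all 2905 genes tested, 1386 had a ratio below 1. Of 13 activation and immediate early genes, 9 were below 1 and none past 1.5-fold, with a median of -0.26. Of 9 glycolysis genes, 8 were below 1, with a median of -0.15. No gene of the cholesterol synthesis or IL-17 lists reached the level needed to be tested.

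**Figure D5:**
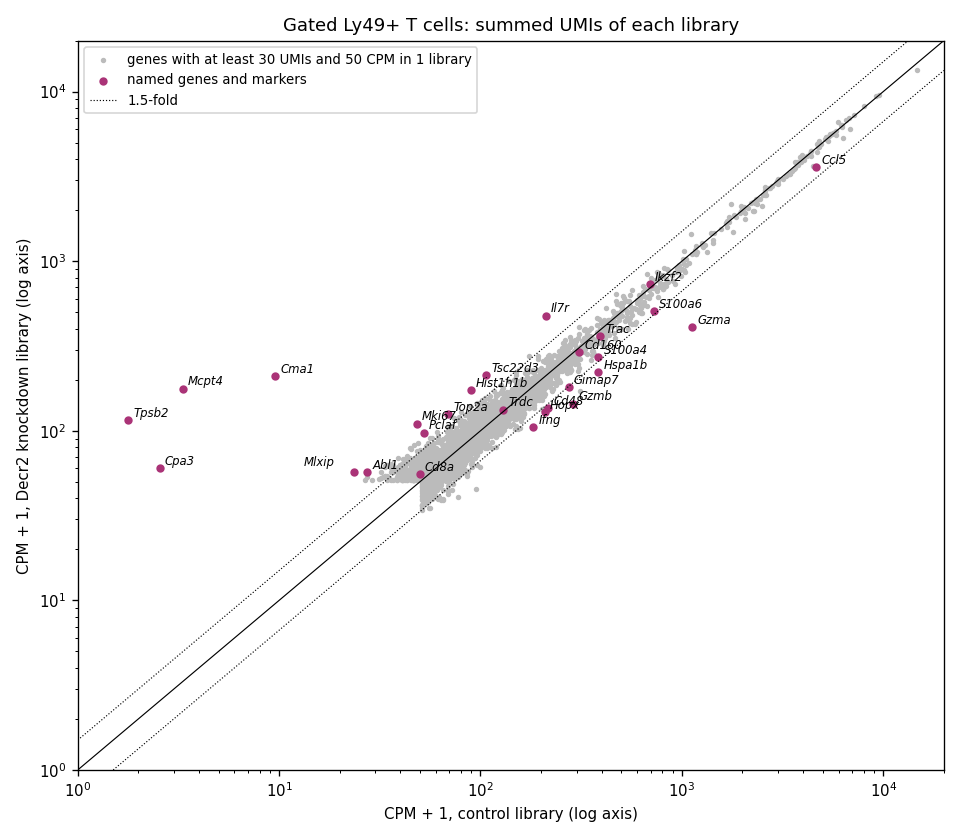
Level of each tested gene in Ly49+ T cells of the Decr2 knockdown library against the control library (CPM + 1, log axes), with named genes in colour; the solid line is equality and dotted lines are 1.5-fold. Il7r (209.8 and 475 CPM) lies above the line and Gzma (1128 and 409 CPM) below it. The 4 mast cell protease genes at the left each had most of their knockdown UMIs in 1 cell, and Ikzf2, Trac, Trdc and Cd160 lie near the line.

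Markers of other cell types were summed in Ly49+ T cells. The 10 NK markers came to 1805 and 1297 CPM, against 12300 and 12567 CPM in NK cells and 1379.9 and 982 CPM in B cells, and none was at 0 in Ly49+ T cells apart from Ncr1, which was gated out. The sum was nearer to that of B cells than to that of NK cells, and its part in the NK receptor results was not tested. Single genes weigh heavily in these sums. In Ly49+ T cells Gzma gave 1128 and 409 CPM, and Cma1, mostly from 1 cell, 209 CPM in the knockdown library. Irf8 was at 376 and 511 CPM in B cells, against 82.4 and 122 CPM in Ly49+ T cells. The nearness of the sums therefore does not tell how much NK cell RNA the Ly49+ T cells held. The 10 B cell markers came to 213 and 219 CPM against 41114 and 17485 CPM in B cells, with Pax5 at 0 in both libraries, Ms4a1 at 0 in the control library and Ebf1 at 0 in the knockdown library. Monocyte and macrophage markers came to 189.6 and 181 CPM, and mast cell and basophil markers to 3.11 and 80.2 CPM. Doublets were left in, and 49 (11.6%) and 22 (8.43%) of the Ly49+ T cells had a doublet score among the highest of their library.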

How the data were processed

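Single-cell RNA-seq was analysed in 2 libraries of CD45+ cells from B16.SIY melanomas, 1 per group. The deposited counts are whole UMIs per gene and barcode. Cell Ranger 6.1.2, Seurat 4.3 and mm10 are named in the submitters' processing notes, and the annotation release is not given in the sources used here. No barcode had under 500 UMIs, so cells had been called before deposit. The library depth was 47538493 UMIs in 11335 barcodes (control) and 55417986 in 9542 (knockdown).

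Cells were gated on raw counts, and the UMIs of each class were summed within a library and given as CPM of that sum. Shares carry exact Clopper-Pearson intervals, differences Newcombe intervals, and ratios exact conditional binomial intervals, at 95% and for counting error only. No test was possible with 1 library per group. Genes with at least 30 UMIs over the 2 sums compared and at least 50 CPM in 1 of them were tested, in both libraries for comparisons of classes. A gene was counted past 1.5-fold between libraries, or past 2-fold in both libraries between classes. Log2 ratios used a pseudocount of 10 CPM. The rule for named genes took the 12 highest and 12 lowest by the interval bound nearest to 1. It left out mitochondrial, ribosomal protein, haemoglobin, Gm, Rik, receptor segment, melanoma and gate genes. Members of the gene lists were named in addition. Which of these are printed was chosen after their values were seen, and some listed genes are not reported here. The cells, markers and 31 gene lists were chosen with earlier results of these data known.

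Doublets were scored with Scrublet (scanpy 1.11.5), and the highest scores, 0.8% per 1000 barcodes (1028 and 728 barcodes), were removed only in an alternative. Thinning was 1 random draw with a fixed seed. Coordinates are from GENCODE annotation of GRCm38 (mm10). The median ratio of knockdown to control over genes at 50 CPM or more was 1.00. The comparison of libraries in Ly49+ T cells was tested on simulated counts of 2931 genes with Poisson error: 95.4% of intervals held the true ratio, and 97.9% of 94 genes raised 2-fold were called. Of 2788 unchanged genes, 1.33% were called. The simulation held no genes with most UMIs in 1 cell. Python 3.11.15, numpy 2.4.6, scipy 1.17.1 and pandas 2.3.3 were used. The alternatives changed thinning, depth and mitochondrial limits, gate thresholds, doublets, shared barcodes, cell weights, scaling and the minimum level.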

Additional observations from a re-analysis of the deposited data

How the results depend on the processing

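No paired analysis was possible because each group had 1 library. The settings without shared barcodes, and the shares among cells that met the rest of the gate, were added after seeing the data. The lower share of Ly49+ T cells in the knockdown library kept its sign, over kept barcodes and over T cells, under every alternative run. Thinned to 1000 UMIs, the share of kept barcodes was 2.14% and 1.27% and of T cells 7.49% and 4.77% (control and knockdown). Thinned to 2000, the knockdown shares were 2.68% and 7.15%, and the difference over kept barcodes was -1.45 points. With at least 2 Ly49 UMIs required, the shares were 2.78% and 2.18% of kept barcodes and 7.02% and 5.40% of T cells, Trdc was in 8.76% and 8.59% of cells, and Trac in 65.7% and Cd160 in 59.5% of control cells.

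Depth limits every share of cells with a UMI. Thinned to 1000 UMIs, Trdc was in 8.05% of knockdown cells, Trac in 30.4% and 29.5%, Cd8a in 5.06% and 4.60%, Ikzf2 in 42.4% and 47.1% (4.72 points), and Cd160 in 28.7% and 19.5% (-9.13 points). Thinned to 2000, Trac was in 49.3% and 46.5% (-2.82 points), Cd8a in 7.83% and 9.06%, Cd160 in 43.5% and 37.4% (-6.08 points), and Ikzf2 in 63.0% of knockdown cells, its difference turning to -3.96 points.

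Counts of genes past a fold moved under several settings. Against the 73 higher and 33 lower genes between libraries, thinning gave 244 and 236, at least 2 Ly49 UMIs 117 and 80, leaving out cells with UMIs of 2 proliferation genes (226 control and 199 knockdown cells had them) 283 and 293, and no minimum level 1782 and 1473. Equal weight per cell gave 122 higher, and leaving out Trdc cells 50 lower. Against CD8 T cells, thinning gave 139 higher and 152 lower, and equal weight 141 and 153. Against Ly49-negative T cells, 42 and 43 were lower under these 2 settings. Between Trdc and Trac cells, thinning left 4 higher and 6 lower. Without the cells with UMIs of 2 proliferation genes, the log2 ratio turned for Mki67, Tpsb2 and Pclaf (-0.26 each), Hist1h1b (-0.65) and Cma1 (-0.16). Mki67 and Pclaf are on the list that chose the removed cells, so their loss was set by the setting. It left 195 control and 62 knockdown cells, and the equal values lie near the floor that the 10 CPM pseudocount sets. They are no sign of a reversed direction. For Cma1 the log2 ratio also turned without its top cell (-0.044). Sparc against Ly49-negative T cells turned to 0.12 in the thinned control library, Klrc1 between Trdc and Trac cells to -1.06 in the thinned knockdown library, and Stmn1 to 0.14 there without the highest doublet scores. Where a setting left fewer cells or UMIs, that is part of its construction; for the rest the cause was not tested.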
